A study of Mus musculus with 24 samples.

Results

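The genes described here make ceramide and convert it into the main classes of sphingolipid. The 10 members, Sptlc1, Sptlc2, Cers2, Cers4, Cers5, Cers6, Degs1, Ugcg, Sgms1 and Sphk1, were chosen by gene symbol, all 10 were found among the 41549 gene rows of the mouse islet RNA-seq table, and all 10 had enough counts to be tested with 15916 genes in all. Palmitate exposure in dispersed islet cells was followed by higher Degs1 mRNA in cells with either oligonucleotide. With the control oligonucleotide 1 of the 10 members was called as changed and with the inhibitor 3, beside 30% and 28.5% of all genes. The other 7 were called in neither, a share that is not given for all genes.

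Ceramide is built in the endoplasmic reticulum from palmitoyl-CoA and serine. Serine palmitoyltransferase makes the sphingoid backbone, ceramide synthases attach a fatty acid to it, and a desaturase turns dihydroceramide into ceramide. Ceramide is then capped to glucosylceramide or sphingomyelin, or is broken down to sphingosine, which sphingosine kinases phosphorylate to sphingosine 1-phosphate. Palmitate feeds the first step of this route, and ceramide is widely studied as a mediator of lipotoxic damage in β-cells.

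The cells were dispersed pancreatic islets of wild-type C57BL/6NRj mice of both sexes, 12 to 14 weeks old, and the preparations came from different animals. All cells were transfected by lipofection with 50 pmol of an oligonucleotide, either a control (Ctr) or the antisense inhibitor αGlu, which is directed against the 5′ fragment of tRNA-Glu(CTC). They were then kept for 48 h in 1% serum with either 0.5 mM palmitate bound to albumin (PA) or 0.75% albumin alone (BSA). This gave 4 groups, named Ctr BSA and αGlu BSA without palmitate and Ctr PA and αGlu PA with it, of 6 libraries each, 3 in each of the 2 batches that the labels name, and total exon counts ranged from 18214719 to 35001979 per library. By the study's methods the groups of a replicate came from the same animal, but the labels do not say which libraries belong together, so all comparisons were unpaired and the spread between animals stayed in their errors. Nothing was sorted, so a lower level can come from fewer cells of a type or from less RNA per cell, and these cannot be told apart.

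The pair of sequences that separates the αGlu groups from the Ctr groups follows, taken from the list of oligonucleotides of the study. Capitals in the second mark the 20 bases that pair with the 20 bases of the inhibitor. The tRNA is encoded by several gene copies, and their positions were not looked up.
αGlu ASO: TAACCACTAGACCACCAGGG
targeted 5′ stretch of tRNA-Glu(CTC): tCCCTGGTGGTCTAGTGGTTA

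Markers of β-cells were abundant in every library. The summed level of 8 β-cell genes, among them Ins1, Ins2 and Iapp, lay between 83668 and 151418 CPM in the 24 libraries, where CPM is the count of a gene scaled to the effective size of its library. Markers of non-endocrine cells were present, and their summed mRNA differed with the treatment or the batch. The sum of 10 fibroblast and stellate cell genes was 132 to 1265 CPM in the BSA groups and 25.4 to 200 CPM in the PA groups, and the sum of 9 acinar cell genes was 3166 to 23666 CPM in batch 1 and 230 to 617 CPM in batch 2. All 10 of the former and all 9 of the latter had counts. The 11 macrophage genes, all with counts, summed to 79.9 to 383 CPM, with the highest value in Ctr BSA replicate 21. These values stand beside the results they touch, and their part in those results was not tested.

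Compared per length, as TPM, which scales counts to exon length and then to a fixed total per library, the members spanned more than 2 orders of magnitude in Ctr BSA cells. Degs1, the desaturase that introduces the double bond of ceramide, had the highest level, with 397 ± 83.1 TPM (SD, n = 6). Cers2, the ceramide synthase for very long acyl chains, followed with 59.8 ± 10.04 TPM, and Sptlc1, the subunit of serine palmitoyltransferase that pairs with a catalytic chain, with 41.3 ± 5.81 TPM. Degs1 lay above Cers2 in every library, whereas the ranges of Cers2 and Sptlc1 overlapped.

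A middle group held Cers5 with 24.6 ± 2.74 TPM, Ugcg with 24.2 ± 6.01 TPM, Cers6 with 22.8 ± 4.595 TPM and Sptlc2 with 19.6 ± 3.81 TPM. Cers5 and Cers6 favour C16 acyl chains, Ugcg makes glucosylceramide, and Sptlc2 is the catalytic chain of serine palmitoyltransferase. Neighbours in this order overlapped. Sgms1, the sphingomyelin synthase of the Golgi, had 9.66 ± 1.68 TPM and overlapped with neither Sptlc2 above it nor Sphk1 below it. Sphk1, a kinase for sphingosine, had 2.87 ± 2.55 TPM, and Cers4 had 2.75 ± 0.553 TPM, with overlapping ranges. Ctr BSA replicate 1 had a lower TPM than the other Ctr BSA libraries over all genes tested, by a median of -0.37 on the log2 scale, which widens these SDs.

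**Figure D1:**
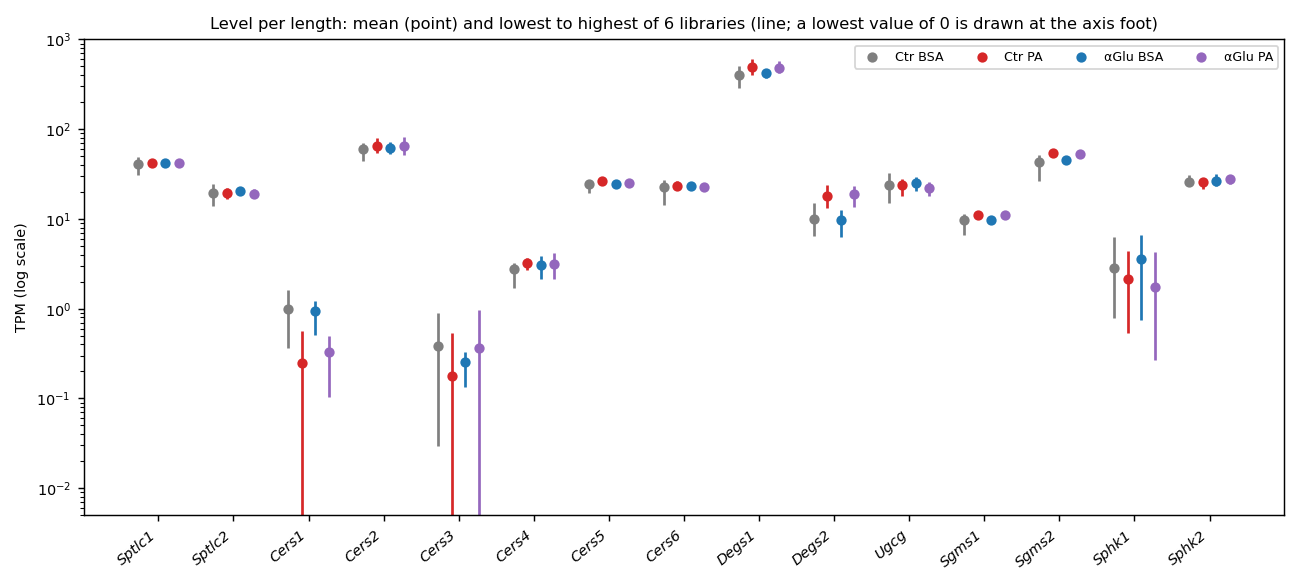
Levels of the members and of 5 family partners, Cers1, Cers3, Degs2, Sgms2 and Sphk2, in TPM on a log axis, with the mean of 6 libraries as a point and the lowest to highest library as a line, coloured by group. Degs1 is the highest gene in all 4 groups, and Cers1, Cers3, Cers4 and Sphk1 have the lowest levels of the genes drawn.

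The members were not always the most abundant gene of their family. Among the 6 ceramide synthases, Cers2 made up 53.7% ± 2.57 of the summed TPM in Ctr BSA (SD, n = 6), Cers5 22.3% ± 1.41 and Cers6 20.4% ± 2.80, while Cers4 held 2.45% ± 0.211. Cers1 and Cers3, which are not members, held 0.888% ± 0.397 and 0.341% ± 0.246. Degs1 held 97.6% ± 0.558 of the desaturase TPM, with Degs2, which also makes phytoceramide, holding the rest. Sgms1 was the minor sphingomyelin synthase with 18.4% ± 1.62, against 81.6% ± 1.62 for Sgms2, and Sphk1 was the minor sphingosine kinase with 9.84% ± 8.31, against 90.2% ± 8.31 for Sphk2. Sptlc3, the alternative catalytic chain of serine palmitoyltransferase, had between 0 and 2 counts per library, so that Sptlc1 and Sptlc2 held 67.9% ± 3.56 and 32.1% ± 3.56 of that family.

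To ask which of these genes respond to palmitate, PA was compared with BSA separately in Ctr and in αGlu cells, by edgeR's quasi-likelihood test with a batch term and Benjamini-Hochberg adjustment over all 15916 genes. In Ctr cells 1 of 10 members was called at an adjusted p below 0.05, Degs1, and it rose. Over all genes 30% were called, 15.5% raised and 14.5% lowered. The members' share was the lower, but it comes from 10 genes and its distance from that background was not tested. In αGlu cells 3 of 10 were called, Degs1 and Sgms1 raised and Sphk1 lowered, beside 28.5% of all genes, 14.4% raised and 14.2% lowered. The median log2 fold change of the members was 0.01 in Ctr and 0.02 in αGlu cells, beside 0.0074 and 0.0055 over all genes.

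Degs1 (ENSMUSG00000038633, GRCm38 chr1:182275772-182282804, minus strand) was 299 to 486 CPM in Ctr BSA libraries, with a median of 384 CPM, and 358 to 626 CPM in Ctr PA, with a median of 443 CPM. In αGlu BSA it was 331 to 446 CPM with a median of 382 CPM, and in αGlu PA 368 to 550 CPM with a median of 451 CPM. The groups overlapped over both batches together. Within batch 1 the PA libraries lay above all BSA libraries in Ctr and in αGlu cells, and within batch 2 they did so in αGlu cells only. How many of all genes separate within a batch is not given, here or for the members below. The log2 fold change was 0.27 (SE 0.0649, adjusted p = 0.00319, edgeR quasi-likelihood) in Ctr cells, a rise of 20.2%, and 0.21 (SE 0.0648, adjusted p = 0.0169) in αGlu cells, a rise of 15.7%. It was 0.24 in batch 1 and 0.28 in batch 2 for Ctr cells, and 0.17 and 0.24 for αGlu cells. With 3 libraries a group none of these passed the adjusted threshold, with adjusted p of 0.0832, 0.096, 0.227 and 0.144 (edgeR). Without single libraries the log2 fold change in Ctr cells ranged from 0.205 to 0.302. The lowest came without Ctr PA replicate 23, the library at 626 CPM, and the highest without Ctr BSA replicate 21.

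Sgms1 (ENSMUSG00000040451, chr19:32122727-32389714, minus strand) was 33.2 to 41.5 CPM in Ctr BSA libraries and 38.2 to 48.7 CPM in Ctr PA, with medians of 37.3 and 41.4 CPM. It was 32.7 to 38.1 CPM in αGlu BSA and 37.0 to 43.6 CPM in αGlu PA, with medians of 37.2 and 41.2 CPM. The ranges overlapped, and within batch 2 PA lay above BSA in Ctr and in αGlu cells. The log2 fold change was 0.15 (SE 0.0624, adjusted p = 0.0671, edgeR) in Ctr and 0.18 (SE 0.0623, adjusted p = 0.0352) in αGlu cells. Although only the latter was called, the difference between both responses was 0.02 (SE 0.0881, unadjusted p = 0.784, edgeR). Leaving out any 1 of αGlu BSA replicates 2 and 18 and αGlu PA replicates 8, 12, 20 and 24 ended the call in αGlu cells, with adjusted p of 0.0877, 0.0771, 0.0695, 0.0533, 0.0667 and 0.0737. Leaving out Ctr BSA replicate 5 or 9 or Ctr PA replicate 19 brought a call in Ctr cells, with adjusted p of 0.0453, 0.0273 and 0.0339, which made 2 members called there.

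Sphk1 (ENSMUSG00000061878, chr11:116530925-116536674, plus strand) had the widest spread of the members. In batch 1 the Ctr BSA libraries had 4.32 to 10.2 CPM, those of Ctr PA 2.91 to 7.44 CPM, those of αGlu BSA 7.37 to 10.7 CPM and those of αGlu PA 2.96 to 6.91 CPM. In batch 2 the same groups had 1.34 to 2.33, 0.953 to 2.18, 1.41 to 2.74 and 0.496 to 1.26 CPM. PA thus lay below BSA without overlap in αGlu cells of each batch, and overlapped with it in Ctr cells of each batch.

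The log2 fold change of Sphk1 was -1.10 in αGlu cells (SE 0.285, adjusted p = 0.00526, edgeR), 0.467 times the BSA level, and -0.47 in Ctr cells (SE 0.282, adjusted p = 0.225). The difference of the responses, -0.63 (SE 0.400, 95% interval -1.46 to 0.19, unadjusted p = 0.127), did not pass the test, so the αGlu response was not shown to differ from the Ctr response. Within batches the αGlu value was -0.99 (adjusted p = 0.132) and -1.27 (adjusted p = 0.0779). The counts behind it were low, 33 to 307 per library in αGlu BSA and 13 to 179 in αGlu PA. Of the 9 tested fibroblast and stellate cell genes 6 fell in the same comparison (median -2.14 on the log2 scale), as did 6 of 9 acinar cell genes (median -0.98). In Ctr cells, where Sphk1 was not called, 8 of 9 and 7 of 9 of these fell, with medians of -2.70 and -1.14. The part of these cells in the Sphk1 values was not tested.

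**Figure D2:**
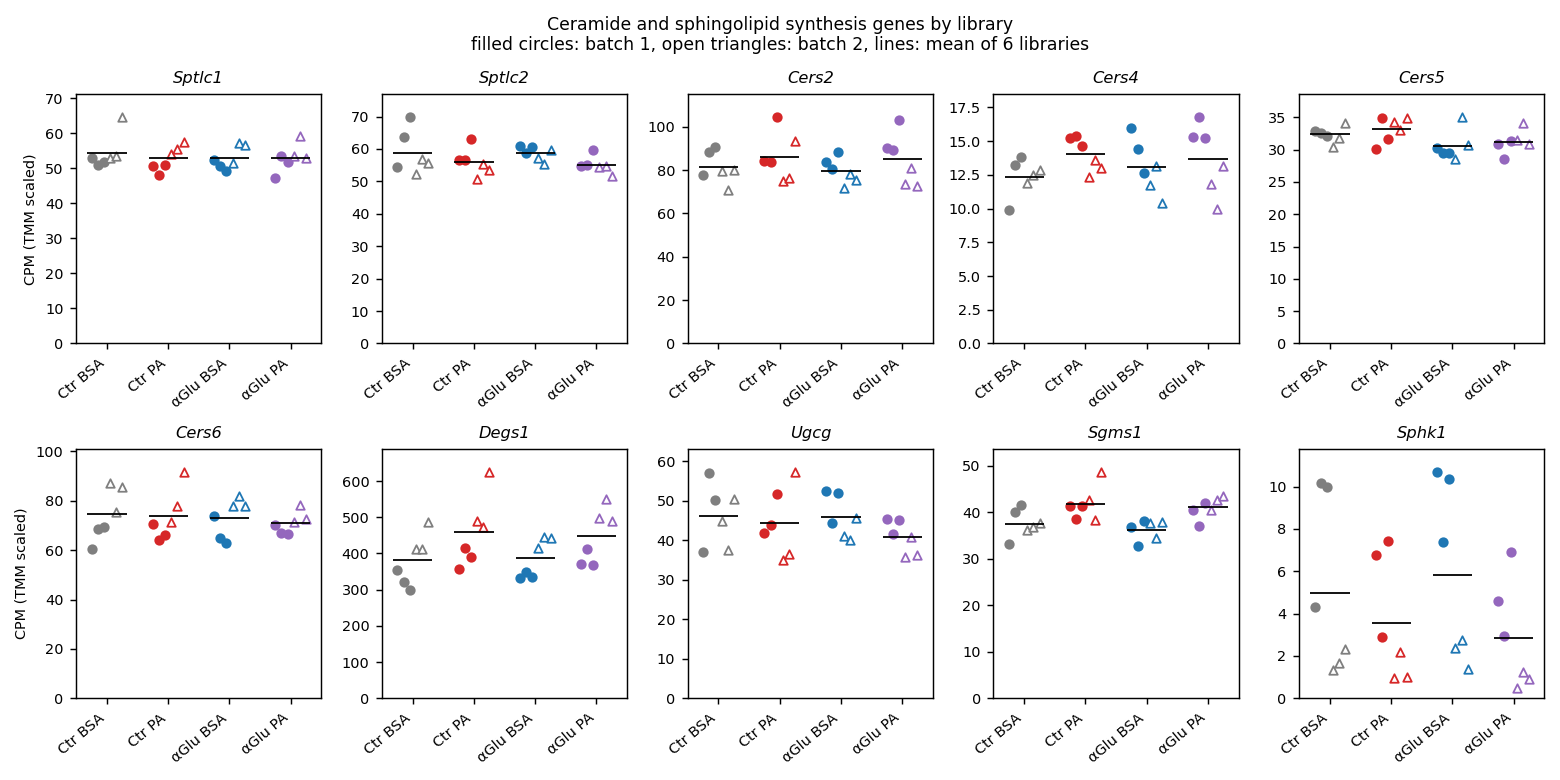
CPM of the 10 members in every library, by group, with batch 1 as filled circles, batch 2 as open triangles and the mean of 6 libraries as a line; every axis starts at 0. Degs1 has higher PA means in Ctr and αGlu cells with batch 2 above batch 1, and Sphk1 has its batch 2 libraries between 0.496 and 2.74 CPM.

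The other 7 members were called in neither cell group. The subunits of the first enzyme had log2 fold changes in Ctr and αGlu cells of -0.05 and 0.00 for Sptlc1 and of -0.07 and -0.09 for Sptlc2. The ceramide synthases had 0.09 and 0.09 for Cers2, 0.17 and 0.06 for Cers4, 0.03 and 0.03 for Cers5 and -0.01 and -0.04 for Cers6. Ugcg, the first enzyme towards gangliosides, had -0.06 and -0.17. The 95% intervals of the 8 members other than Sphk1 that were not called in Ctr cells ran from -0.28 to 0.36, that is from 0.822 to 1.29 times the BSA level, and those of the 7 in αGlu cells from -0.39 to 0.25, from 0.762 to 1.19 times. A change of 2 times in either direction lay outside all of these intervals. That of Sphk1 in Ctr cells ran from -1.05 to 0.12.

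The values of these 7 genes were close over all 24 libraries. Sptlc1 had 47.2 to 64.7 CPM, Sptlc2 50.8 to 69.9 CPM and Cers2 71.0 to 104 CPM. Cers4 had 9.92 to 16.8 CPM, Cers5 28.6 to 35.1 CPM, Cers6 60.6 to 91.8 CPM and Ugcg 34.96 to 57.4 CPM. Groups overlapped for each of them over both batches together. Within single batches PA and BSA did not always overlap, although none of these genes was called. In batch 1 PA lay below BSA for Sptlc1 and above it for Cers4 in Ctr cells, and above it for Cers2 in αGlu cells. In batch 2 it lay below BSA for Sptlc2 in αGlu cells. The exons of Cers2 overlap those of Setdb1 on the other strand, and whether the counting used strand is not given in the sources used here.

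To ask whether the inhibitor of the tRNA fragment changes the members, αGlu was compared with Ctr in BSA and in PA. With edgeR 0 of 10 members were called in either medium, and 0 had an unadjusted p below 0.05. Over all genes 0% were called in each of the 2 comparisons and in the difference between the PA responses, with 461, 538 and 332 genes at an unadjusted p below 0.05. DESeq2 called 8, 30 and 0 genes over all and 0 members. In BSA the log2 fold changes lay between -0.08 for Cers5 and 0.24 for Sphk1, and in PA between -0.39 for Sphk1 and 0.01 for Sptlc1. Without Sphk1 the 95% intervals ran from -0.24 to 0.26 in BSA and from -0.35 to 0.15 in PA, and those of Sphk1 reached 0.81 and -0.99. Of the 8 glia and Schwann cell genes 0 were called in either medium, with median log2 fold changes of -2.545 in BSA and -3.163 in PA. Their sum was 10.8 to 99 CPM in Ctr BSA and 7.72 to 28 CPM in αGlu BSA. It was 14.3 to 72.8 CPM in Ctr PA and 8.22 to 13.5 CPM in αGlu PA. The part of these cells in the members' values was not tested.

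In PA, 9 of 10 members had a lower estimate in αGlu than in Ctr cells, and their median log2 fold change was -0.04 beside -0.0044 over all genes. The largest estimates after Sphk1 were -0.12 for Ugcg (SE 0.108, adjusted p = 0.993, edgeR) and -0.09 for Cers5 (SE 0.0523, adjusted p = 0.993). That of Ugcg rested on 1 library, and was -0.007 without Ctr PA replicate 23. The differences between the PA responses, αGlu minus Ctr, lay between -0.11 for Ugcg and 0.05 for Sptlc1 apart from Sphk1. Both PA comparisons have separate BSA controls, but the αGlu comparison in PA shares its libraries with each of them.

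**Figure D3:**
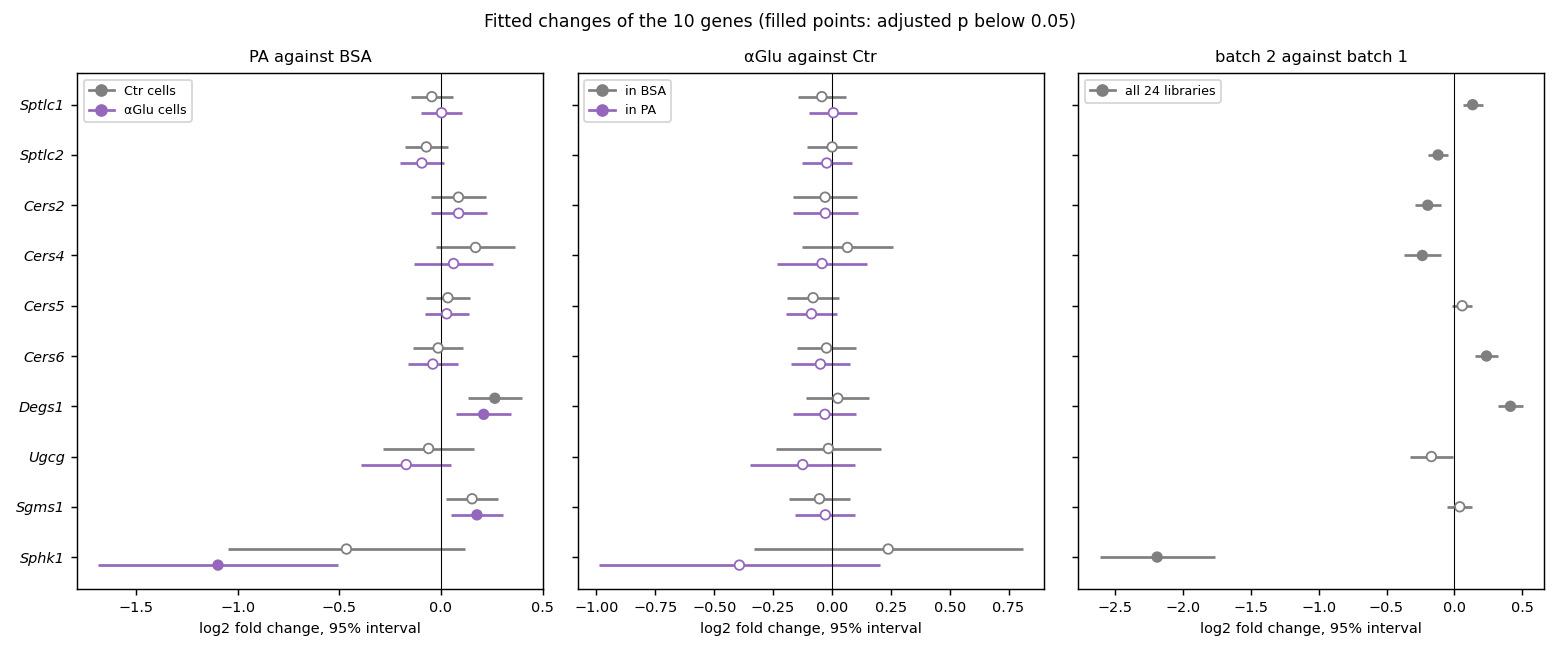
Fitted log2 fold changes of the 10 members with 95% intervals for PA against BSA, αGlu against Ctr and batch 2 against batch 1, with filled points where the adjusted p is below 0.05. Degs1 is filled in both PA comparisons, none is filled for αGlu, and 7 are filled for batch.

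More members were called between the batches than with either treatment. Between batch 2 and batch 1, 7 of 10 members were called, 3 higher and 4 lower in batch 2, beside 51.5% of all genes, 26.1% higher and 25.4% lower. Sphk1 was lower in batch 2 by a log2 fold change of -2.19 (SE 0.205, adjusted p = 3.18e-09, edgeR), a level of 0.219 times that in batch 1, and no batch 2 library reached the lowest of batch 1. Degs1 was higher by 0.41 (SE 0.0459, adjusted p = 5.22e-08), more than its response to PA, and Cers6 by 0.24, Sptlc1 by 0.14. Cers4 had -0.24, Cers2 -0.20 and Sptlc2 -0.12. Cers5 had 0.06, Sgms1 0.04 and Ugcg -0.17, and these were not called. Ugcg was called without Ctr BSA replicate 1 or 21 or Ctr PA replicate 23, with adjusted p of 0.0186, 0.0411 and 0.00386 (edgeR). All 9 acinar cell genes were lower in batch 2, with a median log2 fold change of -4.44, and all 8 β-cell genes were higher, with a median of 0.53. Of the 9 genes of alpha, delta and PP cells 6 were lower and 1 higher, of 11 tested endothelial genes 6 were lower, and of 8 ductal cell genes 6 were lower and 1 higher. Of 11 macrophage genes 3 were higher, of 8 glia and Schwann cell genes 2 were higher, and of 9 tested fibroblast and stellate cell genes 0 were called. The part of these cells in the batch difference of Sphk1 or Degs1 was not tested.

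**Figure D4:**
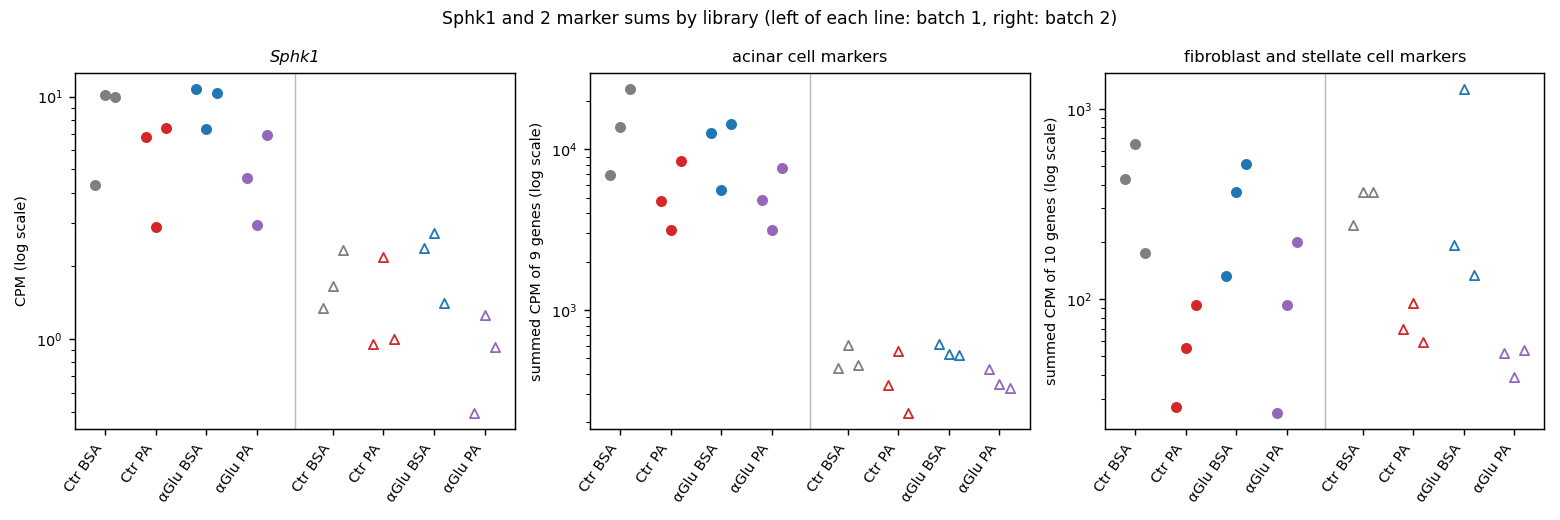
Sphk1 in CPM and the summed CPM of 9 acinar cell and 10 fibroblast and stellate cell genes in every library on log axes, with batch 1 left of the line and batch 2 right of it. Sphk1 and the acinar sum are lower in every library of batch 2, and the fibroblast sum is between 25.4 and 200 CPM in PA in both batches.

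The promoter windows of the members, from 250 bases before to 50 bases after an annotated start, were read from RefSeq on GRCm38.p6, where all 10 genes matched with 18 windows in all. The letters CACGTG, a palindromic E-box that reads alike on both strands, were found in 4 of 10 members, Cers2, Cers6, Degs1 and Sphk1, and in 8.09% of 27025 genes with such a window. They were in 5 of the members' 18 windows and in 7.15% of all 32851 windows. The Sphk1 windows chr11:116532194-116532493 and chr11:116532201-116532500 overlap and hold the same site, so that the count of 5 includes this site more than once. The 4 genes with the letters include 1 that rose with PA, 1 that fell in αGlu cells and 2 that were not called, and Sgms1 had none in 4 windows. AGGTCANAGGTCA, the direct repeat with 1 spacer base that nuclear receptors of the PPAR type bind, was searched on both strands, has no overlap with the first motif, and was found in 0 members and 0.0481% of genes. A match is a description of letters only. The other Sphk1 windows hold no CACGTG. The windows of Degs1 and of 1 of 5 Sphk1 starts are shown because Degs1 rose with PA and Sphk1 fell with it in αGlu cells. In Ctr cells Sphk1 was not called. CACGTG is in capitals, 43 bases before the Degs1 start and 95 bases before the Sphk1 start.
Degs1 chr1:182282146-182282445, minus strand: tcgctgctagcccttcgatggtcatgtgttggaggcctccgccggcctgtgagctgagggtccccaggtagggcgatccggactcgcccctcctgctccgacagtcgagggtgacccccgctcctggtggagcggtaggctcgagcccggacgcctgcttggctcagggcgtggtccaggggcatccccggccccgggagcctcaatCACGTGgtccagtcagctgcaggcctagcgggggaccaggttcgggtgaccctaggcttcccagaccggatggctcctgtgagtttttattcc
Sphk1 chr11:116532194-116532493, plus strand: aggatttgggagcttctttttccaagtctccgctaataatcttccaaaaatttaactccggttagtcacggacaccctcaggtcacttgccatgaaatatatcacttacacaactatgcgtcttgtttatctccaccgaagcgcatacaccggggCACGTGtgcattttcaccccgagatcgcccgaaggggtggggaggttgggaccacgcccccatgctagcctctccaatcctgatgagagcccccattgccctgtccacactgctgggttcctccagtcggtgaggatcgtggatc

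The genes whose pattern over the 24 libraries was closest to that of Degs1 were found by the root mean square difference of log2 CPM centred on each batch. They were Arsb, Laptm4b, Idh3a, Mtch2 and Rap1a, at 0.059 to 0.0687, where Degs1 itself had a root mean square of 0.155 around its batch means. Arsb is a lysosomal sulfatase and Idh3a a subunit of a mitochondrial isocitrate dehydrogenase. Closest to Sgms1, whose own value was 0.126, were Asns, Caprin1, Eif4g2, Anxa7 and Wdfy1, at 0.0597 to 0.0668. Asns makes asparagine.

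The rest of the sphingolipid pathway was described with a list of 69 other genes, of which 62 had enough counts to be tested. In Ctr cells 32 of 62 were called with PA, 21 raised and 11 lowered, and in αGlu cells 30 of 62, 19 raised and 11 lowered, where the same backgrounds of 30% and 28.5% of all genes apply. The median log2 fold change was 0.07 in Ctr and 0.08 in αGlu cells. The 7 genes with too few counts were Sptlc3, Sptssb, Smpd5, Enpp7, Acer1, S1pr4 and S1pr5.

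Breakdown of glycosphingolipids was the role with the most calls. Of its 12 tested genes 9 rose and 1 fell, in Ctr and in αGlu cells alike, with median log2 fold changes of 0.41 and 0.44. Hexa, a hexosaminidase chain that degrades gangliosides, had a log2 fold change of 0.57 in Ctr and 0.67 in αGlu cells, and Psap, the precursor of the saposin activators, 0.40 and 0.45, each without overlap of PA and BSA. The share of all genes without such overlap is not given here. Neu3, a sialidase of the plasma membrane, was the 1 that fell, at -0.74 and -0.51.

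Ceramide and sphingosine removal also held raised genes. Asah1, the acid ceramidase, rose by 0.60 on the log2 scale in Ctr (SE 0.0676, adjusted p = 4.52e-07, edgeR) and 0.55 in αGlu cells, with 161 to 263 CPM in BSA and 261 to 433 CPM in PA in the former. It was 1 of 2 raised among 4 ceramidases in Ctr cells and the 1 raised in αGlu cells. Sgpl1, the lyase that ends sphingosine 1-phosphate, rose by 0.36 and 0.32 with no overlap of PA and BSA in either cell group, a trait whose share over all genes is not given. Sphk2, the more abundant kinase, had -0.06 and 0.10 and was not called.

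Regulators of serine palmitoyltransferase, named here after their values were seen, rose in part. Of the 4 tested inhibitory regulators 2 were raised in Ctr cells, Ormdl2 by 0.43 and Rtn4 by 0.26 on the log2 scale, and 3 in αGlu cells, Ormdl2 by 0.39, Rtn4 by 0.205 and Ormdl3 by 0.23, with none lowered. Sptssa, a small subunit of the enzyme itself and also named after its values were seen, rose by 0.25 in Ctr cells (adjusted p = 0.0372, edgeR). Its ranges overlapped, at 25.41 to 35.54 CPM in Ctr BSA and 29.45 to 49.93 CPM in Ctr PA. The medians were 28.83 and 32.23 CPM, so the highest Ctr PA library lay far above the median of its group. Its fold change without single libraries is not given. Sptssa was not called in αGlu cells, at 0.02, and Kdsr, at -0.11 and -0.19, was called in neither. Of the 4 sphingomyelinases Smpd1, Smpd2, Smpd3 and Smpd4 0 were called in either cell group, and of their 2 relatives Smpdl3a, a phosphodiesterase that acts on nucleotides, rose by 0.23 and 0.25 and Smpdl3b was not called. Of the 4 transfer proteins 0 were called in Ctr cells and 1 was lowered in αGlu cells, Plekha8, which carries glucosylceramide, at -0.18.

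Family partners of the members were called as well. Degs2 rose by 0.84 in Ctr (SE 0.104, adjusted p = 2.04e-06, edgeR) and 1.02 in αGlu cells (SE 0.104, adjusted p = 1.61e-07), and its share of the desaturase TPM went from 2.41% ± 0.558 to 3.54% ± 0.669 in Ctr cells (SD, n = 6). Sgms2 rose by 0.30 and 0.23. Cers1 fell by 2.08 and 1.54 on the log2 scale, at 0.414 to 1.73 CPM without and 0 to 0.603 CPM with PA in Ctr cells. Cers1 shares its transcript with Gdf1 and overlaps Upf1 on the other strand, so its value is uncertain. Degs2 overlaps exons of Evl, and Sphk2 those of Dbp and Rpl18, on the other strand. Cers3 had -1.11 and 0.24 with SEs of 0.622 and 0.618 and was not called.

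Lowered genes of the list included sphingosine 1-phosphate signalling and cell surface enzymes. Of the 5 tested transporters and receptors of sphingosine 1-phosphate, 4 fell in Ctr and 3 in αGlu cells, with S1pr2 at -0.96 and -1.23 and S1pr3 at -1.38 and -1.95. The phosphatases Plpp3 and Plpp1, which act on lipid phosphates at the cell surface, had -1.003 and -1.0, and -1.07 and -1.16. Of the 10 tested genes of glycosphingolipid synthesis 3 fell in each cell group, with A4galt, which makes globotriaosylceramide, at -1.09 and -0.80 and St8sia1, the GD3 synthase, at -0.37 and -0.45. In the same comparisons 8 of 9 tested fibroblast and stellate cell genes fell in Ctr and 6 of 9 in αGlu cells, with medians of -2.70 and -2.14. Of 11 macrophage genes 8 fell in Ctr and 1 in αGlu cells, with medians of -2.20 and -0.39, and of 11 tested endothelial genes 1 fell in each, their summed level being 17.3 to 101 CPM. In the difference between the PA responses, and in αGlu against Ctr cells in BSA or in PA, 0 of the 11 macrophage genes were called. Their fall was thus not shown to differ between Ctr and αGlu cells. Of the 9 acinar cell genes 7 fell in Ctr and 6 in αGlu cells, with medians of -1.14 and -0.98, of 8 ductal cell genes 3 fell in each, with medians of -0.29 and -0.32, and of 9 genes of alpha, delta and PP cells 3 and 1 fell. Of 8 glia and Schwann cell genes 0 were called in either, with medians of -0.6 and -1.32. The part of these cells in the lowered genes was not tested.

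**Figure D5:**
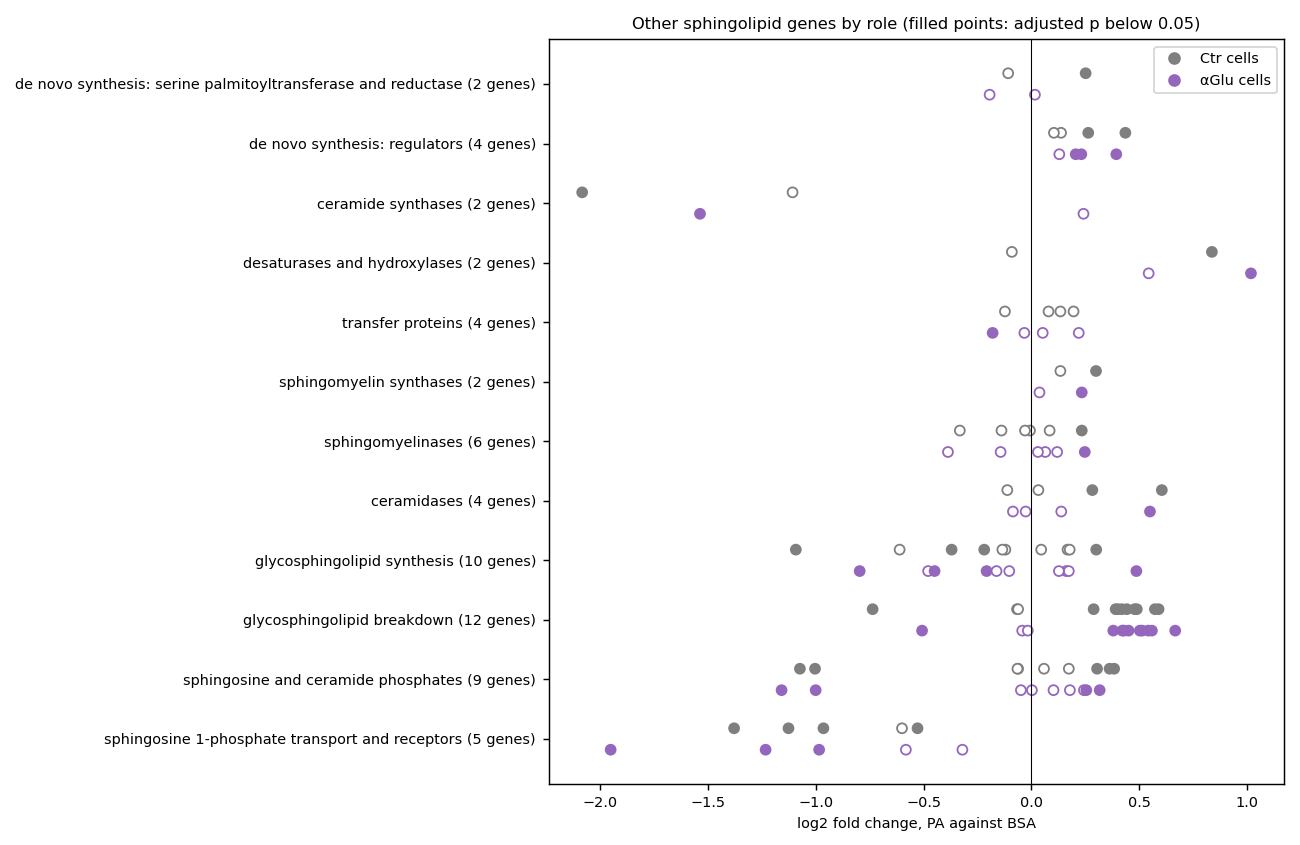
Log2 fold change with PA of the 62 other sphingolipid genes by role, in Ctr cells (upper row of each role) and αGlu cells (lower row), with filled points where the adjusted p is below 0.05. Of the 12 glycosphingolipid breakdown genes 9 are filled on the right in each row, and the sphingosine 1-phosphate transporters and receptors lie on the left.

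In αGlu against Ctr cells 0 of these 62 genes were called in BSA or in PA with edgeR, and 0 and 1 had an unadjusted p below 0.05. The 1 was S1pr2 (PA), at -0.47 on the log2 scale (SE 0.190, unadjusted p = 0.0201, adjusted p = 0.993, edgeR). In the difference between the PA responses 0 were called and 0 had an unadjusted p below 0.05. Between the batches 39 of 62 were called, 23 higher and 16 lower in batch 2, beside 51.5% of all genes, 26.1% higher and 25.4% lower. Smpd1, the acid sphingomyelinase, was higher by 0.45, as were Degs2 by 0.77 (log2), Cerk, which makes ceramide 1-phosphate, by 0.41, St8sia5 by 0.54 and Asah1 by 0.43. B4galnt1, the GM2 and GD2 synthase, was lower with -2.24, Spns2, an exporter of sphingosine 1-phosphate, with -1.91, Plpp2 with -1.22, Kdsr, which reduces 3-ketosphinganine, with -0.57, and Smpdl3b with -2.90.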

How the data were processed

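Dispersed mouse islets were profiled by stranded poly(A) RNA-seq, aligned to GRCm38 according to the submitters' processing notes, and were processed in the RNA-seq portal of QIAGEN (version 5.1). No source used here gives the aligner, its annotation release or its strand setting. The authors deposited 1 table with whole-number exon counts per gene and library, with RPKM, TPM and CPM beside them. Empty cells were read as 0, and the 48 columns of RPKM and CPM were not used. Counts were the basis of every test, and the TPM deposited by the authors were used for levels between genes.

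The fit was made in edgeR 4.0.16 (R 4.3.3) with TMM scaling, filterByExpr with a minimum count of 10, 1 coefficient per group plus batch, and the two-sided quasi-likelihood F-test over 24 libraries and 15916 genes. CPM in the text are TMM scaled. The script was tested on simulated data. DESeq2 1.42.0, limma 3.58.1 on log2(TPM + 0.5), other scaling and filters, other samples and leaving out each library were the alternatives. All 10 members are named, and of the other list up to 5 raised and 5 lowered genes of smallest p per comparison with the members' family partners, plus the 5 genes closest to each of 2 members, except for an item that is not reported here. The members and lists were chosen with earlier results of these data known, so nothing here is independent support for a pattern in them. Depth limits low genes such as Sphk1 most. Where libraries of a group share cells or handling, p-values cover that spread only.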

Additional observations from a re-analysis of the deposited data

Results flagged for a closer look

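Over the 40 sets of 6 libraries formed by 10 members and 4 groups, 2 held a library that stood apart by Dixon's ratio (gap to the nearest library over the whole range) above its 95% critical value, and chance alone gives about 1 in 20. Sptlc1 in Ctr BSA replicate 21 was 64.7 CPM, with the nearest library at 53.6 CPM and a ratio of 0.812. That library also had the highest summed level of the 11 macrophage genes, 383 CPM, and of the 8 glia and Schwann cell genes, 99 CPM. Cers5 in αGlu BSA replicate 18 was 35.1 CPM, with the nearest at 30.7 CPM and a ratio of 0.676, and that library had the highest sum of the 10 fibroblast and stellate cell genes, 1265 CPM. The part of these cells in either value was not tested.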

How the results depend on the processing

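With PA in Ctr cells, 1 member was called in the report. The number was 0 without the batch term, in batch 1 alone, in batch 2 alone, and with a fold above 2 at unadjusted p below 0.05. Over all genes these settings called 2312 of 15916, 2033 of 16147, 1833 of 15707 and 941 of 15916, against 4772 of 15916. The other list then had 6 with the fold rule and 20 in batch 2 alone, against 32. In αGlu cells 0 members were called without the batch term or in batch 1 or batch 2 alone, and 1 with the fold rule or with limma on TPM, against 3. Over all genes these settings called 2271 of 15916, 1644 of 16147, 1902 of 15707, 886 of 15916 and 2755 of 15916, against 4543 of 15916. The other list had 5 with the fold rule and 17 in batch 1 alone, against 30. Between batches the fold rule left 1 member and 5 other genes, against 7 and 39. Over all genes it left 1015 of 15916, against 8197. Batch-wise fits have 3 libraries per group.

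Leaving out 1 library at a time gave 1 to 2 members and 30 to 36 other genes in Ctr cells, and 2 to 3 and 27 to 34 in αGlu cells. It gave 0 and 0 in the αGlu comparisons and in the difference, and 7 to 8 and 38 to 44 between batches. Of 16021 to 16082 genes tested in all, 4201 to 4902 were called in Ctr cells, 3936 to 5161 in αGlu cells and 7888 to 8400 between batches. In αGlu against Ctr 0 to 9 of all genes were called in BSA and 0 to 3 in PA, and 0 in the difference. Of the members' log2 fold changes, signs turned for values near 0. In Ctr cells limma on TPM gave 0.021 for Sptlc1, 0.049 for Cers6 and 0.001 for Ugcg, and batch 1 alone gave -0.024 for Cers5 and 0.008 for Cers6. In αGlu cells Sptlc1 turned to -0.008 with DESeq2, -0.002 in batch 1 and -0.004 with limma, Cers4 to -0.016 in batch 2 and Cers6 to 0.008 in batch 1. Between batches limma on TPM gave -0.028 for Cers5 and -0.043 for Sgms1.
Without single libraries Cers6 in Ctr cells ranged from -0.061 to 0.019, Sptlc1 in αGlu cells from -0.017 to 0.023, and the difference of Ugcg from -0.162 to 0.009. Degs1 kept its call without any single library. Without the batch term its adjusted p was 0.207 and 0.334 (edgeR), and Ugcg was called in αGlu cells when only both its groups were fitted, at -0.17 (adjusted p = 0.029). No paired analysis was possible because the groups share no replicate numbers and the labels do not tie libraries to animals. The cause of these differences was not tested.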
